A study of Bos taurus with 18 samples.

Results

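Cells hold on to the matrix around them through a small set of membrane receptors. Integrins are the main family: each is a pair of an alpha and a beta chain, most alpha chains pair with ITGB1, and the alpha chain largely decides whether the pair binds collagen, laminin, fibronectin or a cell surface ligand. Syndecans (SDC genes) are membrane proteins that carry heparan sulphate chains and act beside integrins, the discoidin domain receptors DDR1 and DDR2 are tyrosine kinases switched on by collagen, CD44 binds hyaluronan, and DAG1 encodes dystroglycan, which links laminin to dystrophin inside the cell. The ovary is a tissue whose stroma is remodelled around each growing follicle, so that these receptors meet a different matrix in each layer.

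Earlier results of these data were known when the receptor genes were chosen. The choice was by symbol: integrin alpha and beta chains, the syndecans, DDR1, DDR2, CD44, DAG1 and the integrin-like gene ITGBL1. Of 35 symbols that this choice could hold, 34 had a probe set with that symbol alone, out of 18010 genes named in this way on the array. They comprised 17 alpha chains, 8 beta chains, 4 syndecans and 5 others, each measured by 1 transcript cluster (the summary of all probes of 1 transcript region). ITGAX was not analysed here.

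The tissue was cattle (Bos taurus) ovary, taken at an abattoir from cows that were not pregnant, and RNA was measured on 18 single-colour arrays. The theca, the vascular and steroid-producing layer of the follicle wall, came from the wall of healthy antral follicles less than 5 mm wide, cut out by dissection, with 1 follicle from 1 animal on each of 6 arrays. The tunica albuginea (the dense layer under the ovarian surface), interstitial stroma and stroma close to follicles (called close stroma from here on) were each captured by laser from 10 µm stained sections of cortex, with 4 arrays per compartment and RNA pooled from different animals. Theca RNA was also extracted with another kit, so that compartment, dissection, pooling and RNA kit cannot be told apart wherever theca is compared. All values are log2 signals, so that 1 unit is a 2-fold difference, and every array had a median of 4.1. A value below 4.1 can be background, and a difference from a group that low is then a lower limit. The laser-captured mean is the mean of those 3 compartments with equal weight. No level of 1 gene is set against that of another, because probes differ in brightness.

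The labelled compartments were checked against marker genes. All 5 measured theca markers (CYP17A1, CYP11A1, INSL3, LHCGR and HSD3B1) were higher in theca than in the other compartments, with a mean over the list of 8.90 to 10.06 on theca arrays and of 2.88 to 3.40 on laser-captured arrays. The 6 stromal fibroblast markers averaged between 8.98 and 10.03 on every array. None of the lists was of tunica markers, so the tunica label was not checked in this way. Tunica arrays averaged 3.48 to 3.87 for the endothelial and 3.14 to 3.46 for the oocyte markers, below every array of both kinds of stroma. For the fibroblast markers they averaged 9.72 to 10.03, above every array of both kinds of stroma. Markers of other cells were also counted, beside 19.6% of all clusters called higher in theca than the laser-captured mean and 22.2% called lower. Theca was higher for 9 of 10 endothelial, 5 of 15 leukocyte, 7 of 8 granulosa and 3 of 10 smooth muscle and pericyte markers. It was lower for 6 of the 10 smooth muscle and pericyte, 1 of the 8 granulosa and 6 of 7 oocyte markers. Surface epithelium (2 higher and 2 lower of 9), nerve and Schwann cell (1 higher and 2 lower of 6), red blood cell (1 higher of 5) and platelet markers (none of 6) moved little or in both directions. In whole tissue, fewer cells of a type and less RNA per cell cannot be told apart.

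Across the 4 compartments, 19 of the 34 receptor genes differed by limma's F test (55.9%, beside 36.4% of all 26773 clusters; adjusted p below 0.05 over all clusters). In 14 of them the compartment means spanned at least 1 log2 unit, which 15.1% of all clusters did as well as passing the test. Of the 34 genes, 13 lay at or above the array median on all 18 arrays and 8 lay below it on all of them (ITGA11, ITGA2B, ITGA7, ITGAD, ITGAL, ITGAM, ITGB2 and ITGB6). The strongest contrasts ran between theca and the rest, as the heat map of all 34 genes by array shows.

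**Figure D1:**
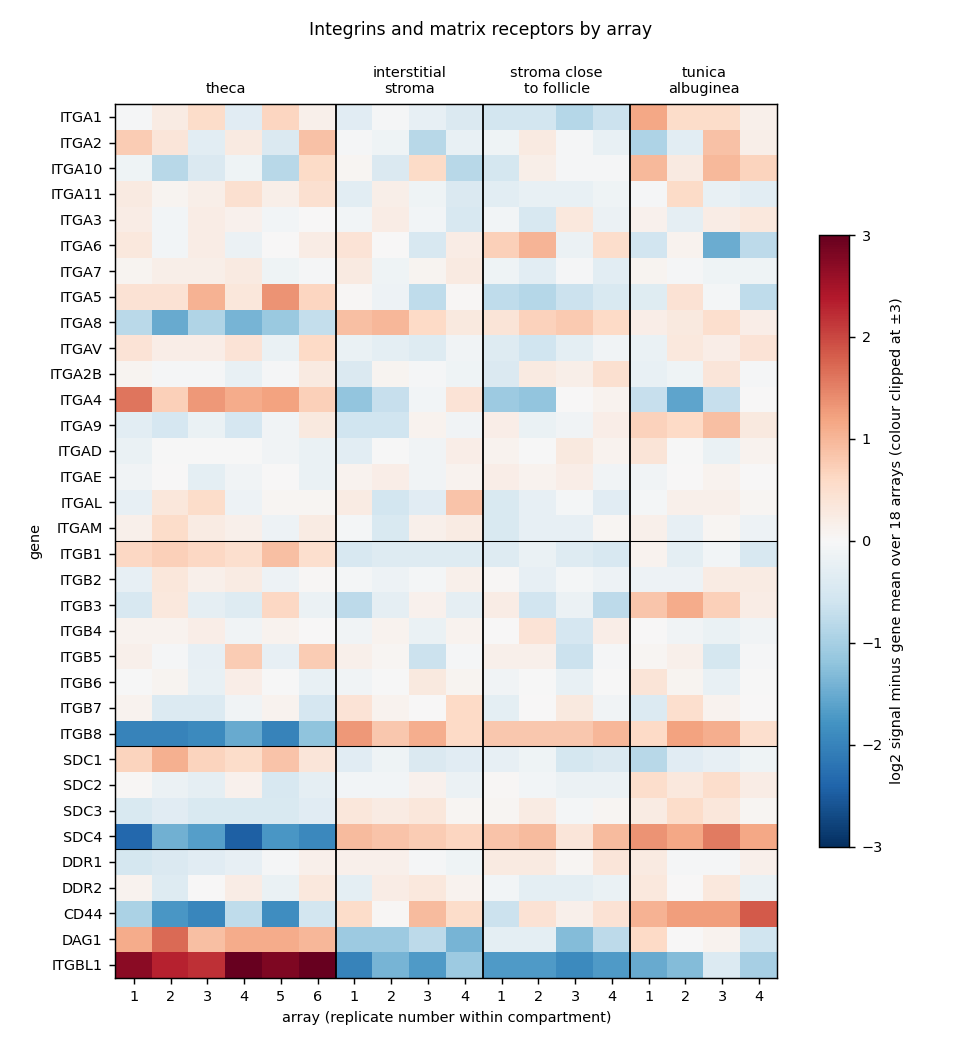
Heat map of the 34 receptor genes (rows, grouped as alpha chains, beta chains, syndecans and others) on the 18 arrays (columns, by compartment); colour is the log2 signal minus the gene's mean over all arrays, clipped at 3 units either way. ITGBL1, DAG1, ITGA4 and ITGB1 stand high on all 6 theca arrays, and SDC4, ITGB8, ITGA8 and CD44 stand low there.

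Against the laser-captured mean, 9 receptor genes were higher in theca (26.5%, beside 19.6% of all clusters) and 7 were lower (20.6%, beside 22.2%). Centring on the 75th percentile instead gave 7 higher and 11 lower, and moved the share of all calls that were higher in theca from 46.9% to 33.7%. The 16 together make 47.1% of the 34 genes, beside 41.9% of all clusters, so that being called at all was little more common than in the whole table. Differences of at least 2-fold were reached by 9 of the 34 (26.5%, beside 9.70% of clusters): ITGBL1, DAG1, ITGA4, ITGA5 and SDC1 were higher and SDC4, ITGB8, CD44 and ITGA8 lower. All theca arrays lay above all 12 others in 5 genes (14.7%, beside 5.54% of clusters) and below them in 4 (11.8%, beside 4.48%). The median difference of the receptor genes was 0.10, and that of all clusters was -0.04. The question behind the comparison is how the layer that forms around a follicle differs from the stroma outside it.

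ITGBL1 encodes a protein with repeats like those of integrin beta chains but with no membrane span, and so is not a matrix receptor in its own right. Its signal in theca ran from 7.1 to 8.8 with a median of 7.65. It was 2.9, 3.5, 3.2 and 3.8 in interstitial stroma, 3.2, 3.2, 3.0 and 3.2 in close stroma, and 3.4, 3.6, 4.5 and 3.9 in tunica albuginea. Every theca array lay far above every other array, and 11 of the 12 laser-captured arrays lay below the array median. The difference from their mean was 4.35 ± 0.23 (SE, limma adjusted p = 9.6e-11), a 20.4-fold change that is a lower limit if the low values are background.

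Among beta chains, ITGB1, the partner shared by most alpha chains, was the one that rose in theca. It ran from 9.8 to 10.2 there (median 9.9). Interstitial stroma had 8.8, 8.9, 8.9 and 8.9, close stroma 8.9, 9.1, 8.9 and 8.8, and tunica albuginea 9.4, 9.0, 9.2 and 8.8. No theca array overlapped with any other, and the difference of 0.97 ± 0.09 (SE, adjusted p = 1.8e-07) is a 1.95-fold change. The laser-captured compartments did not differ from each other in ITGB1 by this test.

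ITGB8, which pairs with ITGAV alone and is known for releasing active TGF-beta from its latent form, went the other way. Theca arrays ran from 2.8 to 3.6 (median 2.85), all below the array median. Interstitial stroma gave 6.1, 5.6, 5.9 and 5.4, close stroma 5.6, 5.6, 5.6 and 5.8, and tunica albuginea 5.4, 6.0, 5.9 and 5.3. The 3 laser-captured compartments overlapped fully with each other, while theca stood apart by -2.65 ± 0.14 (SE, adjusted p = 1.9e-10), a 6.28-fold lower signal that is a lower limit if the theca values are background. Its partner ITGAV, the alpha chain that also joins ITGB3, ITGB5 and ITGB6, did not follow it. ITGAV averaged 8.07 ± 0.27 (SD, n = 6) in theca, 7.55 ± 0.13 in interstitial stroma, 7.45 ± 0.21 in close stroma and 7.97 ± 0.26 in tunica albuginea (SD, n = 4 each). It was higher in theca than in the mean by 0.41 ± 0.12 (SE, adjusted p = 0.0095), a call that was lost when the values were quantile-normalized again (0.21, adjusted p = 0.19) or normalized by cyclic loess (0.26, adjusted p = 0.092). Theca and tunica albuginea overlapped in ITGAV.

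The other beta chains did not pass the test between theca and the laser-captured mean, and ITGB3 is described with the tunica. ITGB5, a vitronectin receptor chain with ITGAV, averaged between 6.53 and 6.83 in the 4 compartments. ITGB2, the leukocyte beta chain, averaged 3.45 to 3.62, ITGB4, the hemidesmosome chain of epithelia, 3.80 to 3.97, and ITGB6, an epithelial chain, 2.42 to 2.58. ITGB7, which pairs with ITGA4 or ITGAE on lymphocytes, averaged 3.90 to 4.38. ITGB2, ITGB4 and ITGB6 had group means below the array median throughout.

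The alpha chains that bind fibronectin and related ligands split in theca. ITGA5, the fibronectin receptor chain, ran from 4.7 to 5.7 in theca (median 4.9). It was 4.4, 4.2, 3.6 and 4.4 in interstitial stroma, 3.6, 3.5, 3.7 and 3.9 in close stroma, and 4.0, 4.8, 4.3 and 3.6 in tunica albuginea. One tunica array reached the theca range and the other 11 laser-captured arrays lay below it, with a difference of 1.07 ± 0.18 (SE, adjusted p = 0.00012). Of the laser-captured arrays, 7 lay below the array median for ITGA5, so that this difference is a lower limit if those values are background. ITGA4, which binds VCAM1 and fibronectin, ran from 7.0 to 7.9 in theca (median 7.45). It was 5.1, 5.6, 6.2 and 6.7 in interstitial stroma, 5.2, 5.1, 6.3 and 6.4 in close stroma, and 5.6, 4.7, 5.6 and 6.3 in tunica albuginea. The laser-captured arrays spread widely within each compartment, yet none reached theca, and the difference was 1.67 ± 0.27 (SE, adjusted p = 6.6e-05), or 3.17-fold.

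ITGA8, the mesenchymal chain that binds nephronectin, was lower in theca. Theca arrays ran from 6.2 to 7.0 (median 6.7). Interstitial stroma had 8.6, 8.7, 8.3 and 8.0, close stroma 8.1, 8.4, 8.5 and 8.3, and tunica albuginea 7.9, 8.0, 8.2 and 7.9. All 12 laser-captured arrays lay above all theca arrays, with a difference of -1.61 ± 0.13 (SE, adjusted p = 2.7e-08). ITGA2B, the platelet chain, averaged 3.0 to 3.25 and did not differ, and the platelet markers were also below the array median in every compartment mean.

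ITGA4 is also carried by leukocytes, and ITGA5, ITGA4 and ITGB1 by endothelium, so the markers of those cells are given beside them. The 10 endothelial markers averaged 5.79 to 6.19 on theca arrays, 4.04 to 5.23 in interstitial stroma, 3.93 to 4.51 in close stroma and 3.48 to 3.87 in tunica albuginea. The 15 leukocyte and macrophage markers averaged 4.45 to 4.83, 3.85 to 4.81, 3.59 to 4.13 and 4.11 to 4.47 in the same order. The group means of 6 of these 15 markers lay below the array median in theca, beside 9 in interstitial stroma, 10 in close stroma and 8 in tunica albuginea. The part of these cells in the higher ITGA4, ITGA5 and ITGB1 signals was not tested.

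Of the alpha chains found chiefly on leukocytes, 3 were low everywhere. ITGAL and ITGAM averaged 2.67 to 3.15 and ITGAD 3.12 to 3.33, all below the array median on every array, and ITGAE, at about that median, averaged 3.98 to 4.20. ITGAM alone of them passed a test, at 0.30 ± 0.12 (SE, adjusted p = 0.0498) against the mean and 0.43 ± 0.15 (SE, adjusted p = 0.042) against close stroma. Both ITGAM calls rest on values that can be background and were lost when any 1 of several arrays was left out: theca replicates 1, 2, 3, 4 and 6 and close stroma replicates 1, 2 and 3 for both, and interstitial stroma replicates 1 and 2 and tunica albuginea replicates 2, 3 and 4 for the first. The adjusted p then reached at most 0.14.

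**Figure D2:**
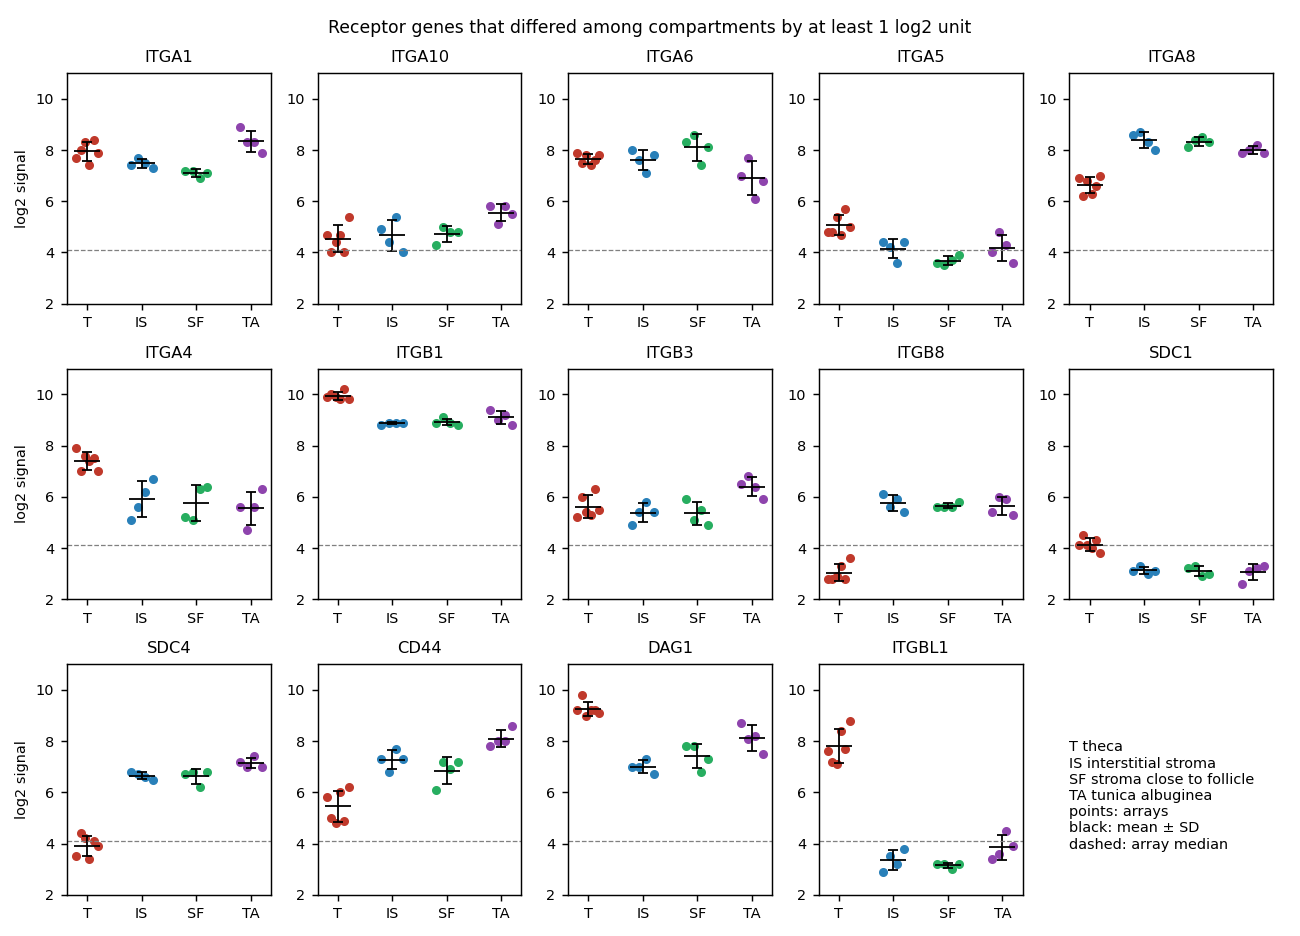
Log2 signal (y axis) of the 14 receptor genes that passed the F test with compartment means at least 1 unit apart; points are arrays, black bars are mean ± SD, and the dashed line is the array median of 4.1. Theca arrays of ITGBL1, ITGA4, ITGB1, DAG1 and SDC1 lie above all others, those of ITGB8, SDC4 and ITGA8 lie below all others, and tunica albuginea is highest for ITGA1, ITGA10, ITGB3 and CD44.

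All 4 syndecans differed among the compartments, with opposite signs in theca. SDC4, the syndecan found in focal adhesions, ran from 3.4 to 4.4 in theca (median 4.0). It was 6.8, 6.7, 6.6 and 6.5 in interstitial stroma, 6.7, 6.8, 6.2 and 6.8 in close stroma, and 7.2, 7.0, 7.4 and 7.0 in tunica albuginea. The gap between theca and the nearest other array was wide, and the difference of -2.89 ± 0.14 (SE, adjusted p = 4.6e-11) is 7.42-fold, a lower limit if the theca values, of which 3 of 6 lay below the array median, are background. SDC3, best known from neural tissue, was also lower in theca, at 3.63 ± 0.05 (SD, n = 6) against 4.30 ± 0.14, 4.12 ± 0.13 and 4.35 ± 0.21 (SD, n = 4 each) in interstitial stroma, close stroma and tunica albuginea. The SDC3 difference of -0.62 ± 0.08 (SE, adjusted p = 8.3e-06) lies near background, and with values under the array median set to it the difference was -0.17 (adjusted p = 0.063).

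SDC1, the syndecan typical of epithelia and plasma cells, was the one that was higher in theca. It ran from 3.8 to 4.5 there (median 4.1). Interstitial stroma had 3.1, 3.3, 3.0 and 3.1, close stroma 3.2, 3.3, 2.9 and 3.0, and tunica albuginea 2.6, 3.1, 3.2 and 3.3. The groups did not overlap (difference 1.04 ± 0.12, SE, adjusted p = 1.3e-06), but the laser-captured values all lay below the array median and the theca values close to it, and with values under the median set to it the difference was 0.10 (adjusted p = 0.18). The 8 granulosa markers, of an epithelium that lines the follicle, averaged 5.04 to 5.5 on theca arrays and 3.51 to 3.85 on the others, and their part in the SDC1 signal was not tested. SDC2, the main syndecan of fibroblasts, averaged 8.20 ± 0.22 in theca (SD, n = 6), 8.32 ± 0.13 in interstitial stroma, 8.28 ± 0.10 in close stroma and 8.78 ± 0.15 in tunica albuginea (SD, n = 4 each). Its difference from the mean, -0.26 ± 0.09 (SE, adjusted p = 0.032), came with a larger one from the tunica: against tunica albuginea alone it was -0.57 ± 0.12 (SE, adjusted p = 0.0011), with no overlap, and against the other compartments it did not pass. The call against the mean was lost without theca replicate 2, 3, 5 or 6 or interstitial stroma replicate 3 (adjusted p up to 0.28 over all settings tried).

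CD44 and DAG1 moved in opposite directions in theca. CD44, the hyaluronan receptor, ran from 4.8 to 6.2 in theca (median 5.4). It was 7.3, 6.8, 7.7 and 7.3 in interstitial stroma, 6.1, 7.2, 6.9 and 7.2 in close stroma, and 7.8, 8.0, 8.0 and 8.6 in tunica albuginea. One array of close stroma reached into the theca range, and the difference was -1.96 ± 0.23 (SE, adjusted p = 2.1e-06), or 3.89-fold. DAG1 ran from 9.0 to 9.8 in theca (median 9.2). Interstitial stroma had 7.0, 7.0, 7.3 and 6.7, close stroma 7.8, 7.8, 6.8 and 7.3, and tunica albuginea 8.7, 8.1, 8.2 and 7.5. Theca lay above all other arrays, with a difference of 1.73 ± 0.18 (SE, adjusted p = 4.2e-07), or 3.32-fold. Both genes ordered the compartments with theca at one end, but the tunica lay at the far end for CD44 and next to theca for DAG1.

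Of the collagen receptors, none differed by 2-fold between theca and the mean. DDR2, the discoidin receptor of fibroblasts, averaged 7.2 ± 0.26 in theca (SD, n = 6) and 6.97 to 7.30 elsewhere, and did not pass any test. DDR1, its epithelial relative, was slightly lower in theca (-0.36 ± 0.10, SE, adjusted p = 0.0091), with means of 3.90 in theca and 4.18 to 4.38 elsewhere, all close to background. With values under the array median set to it, DDR1 differed by -0.13 (adjusted p = 0.11). ITGA11 (means 2.70 to 3.20) was below the array median on all arrays. It was called higher in theca than the mean (0.41 ± 0.12, SE, adjusted p = 0.013), but also at background level, and ITGA2 (means 4.03 to 4.58) did not differ. The ITGA11 call against interstitial stroma (0.45 ± 0.16, SE, adjusted p = 0.041) was lost without theca replicate 1, 3, 4, 5 or 6 or interstitial stroma replicate 1, 3 or 4, and that against close stroma (0.50 ± 0.16, SE, adjusted p = 0.023) without close stroma replicate 1.

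Theca was also set against each compartment alone. Against interstitial stroma 13 of the 34 genes differed (38.2%, beside 28.9% of clusters), 8 of them higher and 5 lower (14.4% and 14.6% of clusters), against close stroma 16 differed (47.1%, beside 31.1%), 10 higher and 6 lower (15.4% and 15.6%), and against tunica albuginea 16 differed (47.1%, beside 34.4%), 7 higher and 9 lower (16.3% and 18.1%). With that other centring the counts were 7 higher and 6 lower, 8 and 7, and 7 and 11, and the share of all calls that were higher went from 49.7%, 49.7% and 47.5% to 38.1%, 35.4% and 34.2%. These comparisons share the theca arrays. ITGBL1, DAG1, ITGA4, ITGA5, ITGB1 and SDC1 were higher and SDC4, SDC3, ITGB8, CD44 and ITGA8 lower in all 3 of them. ITGBL1 differed by 4.45, 4.65 and 3.95 (each ± 0.29, SE), SDC4 by -2.73, -2.71 and -3.23 (each ± 0.18), CD44 by -1.82, -1.40 and -2.65 (each ± 0.29) and DAG1 by 2.25, 1.83 and 1.13 (each ± 0.23) against interstitial stroma, close stroma and tunica albuginea in turn. ITGAV was higher in theca than in interstitial stroma (0.52 ± 0.15, SE, adjusted p = 0.016; adjusted p up to 0.14 over all settings, the call being lost without interstitial stroma replicate 3) and in close stroma (0.62 ± 0.15, SE, adjusted p = 0.0047; adjusted p = 0.051 after renewed quantile normalization), and averaged 8.07 in theca and 7.97 in tunica albuginea.

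**Figure D3:**
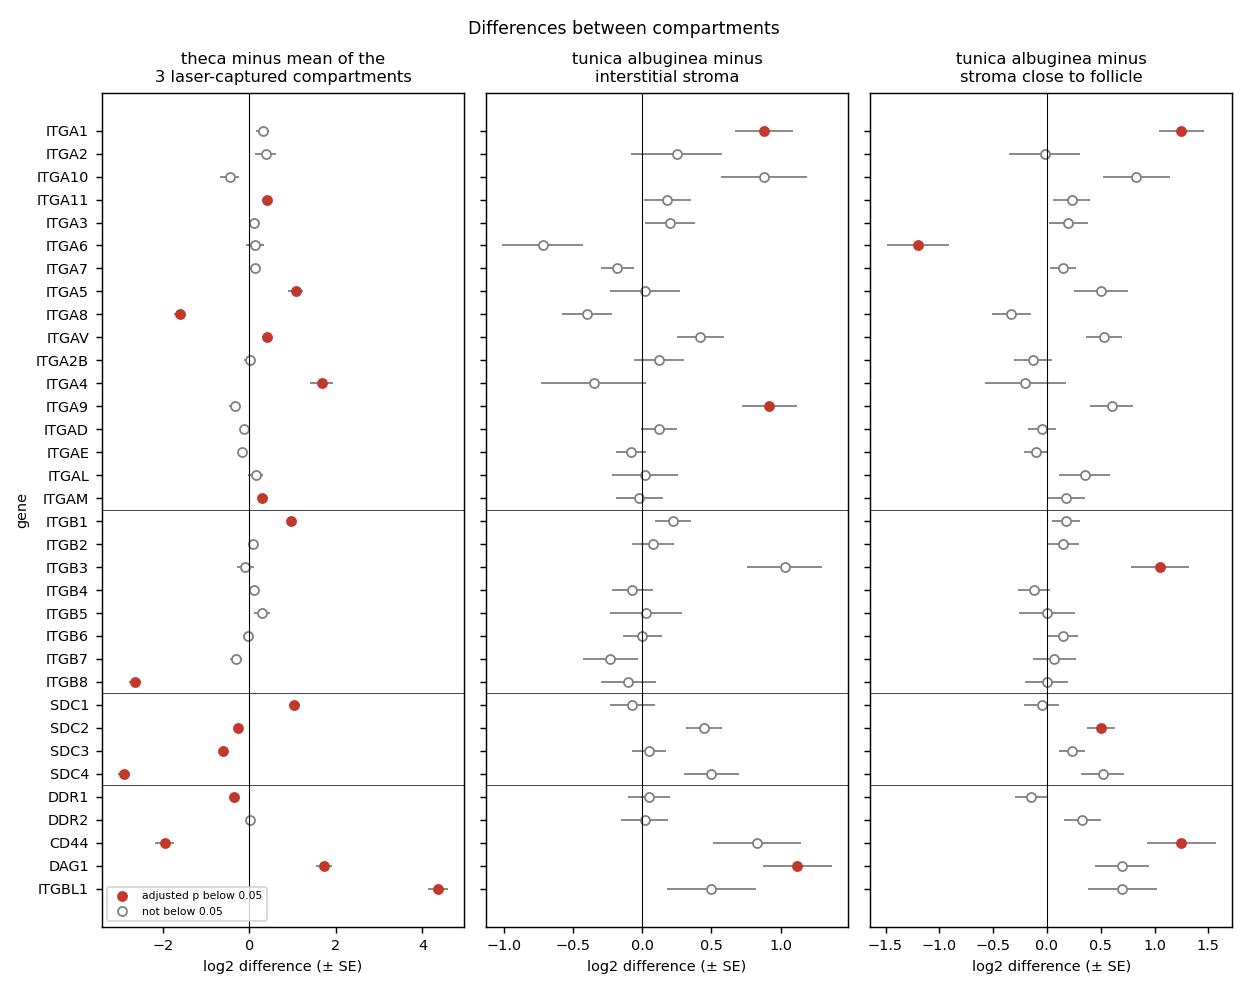
Log2 differences (x axis, ± SE) of the 34 receptor genes in 3 comparisons; filled points have an adjusted p below 0.05 and open points do not. In theca the calls run from SDC4 at -2.89 to ITGBL1 at 4.35, while those of tunica albuginea lie between -1.20 (ITGA6) and 1.25 (ITGA1 and CD44).

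Several matrix receptor genes gave a higher RNA signal in tunica albuginea than in 1 or both kinds of stroma. Of the calls between tunica and stroma, only that of ITGA1 against close stroma held in every setting. Among the 3 laser-captured compartments, 4 receptor genes differed by the F test (ITGA1, ITGA9, DAG1 and ITGB3; 11.8%, beside 2.97% of all clusters). Against interstitial stroma, 3 were higher in tunica and none was lower (8.82%, beside 1.52% of clusters called, 0.945% higher and 0.575% lower). Against close stroma, 5 differed (14.7%, beside 3.80%), 4 of them higher (11.8%, beside 1.85%) and 1 lower (2.94%, beside 1.95%). In 7 of the 34 genes the tunica arrays all lay above all arrays of interstitial stroma, and in 7 above all arrays of close stroma (20.6% each, beside 3.10% and 3.39% of clusters), and in none did they all lie below (2.75% and 3.21% of clusters). The counts rest on 4 pooled arrays a group. Against interstitial stroma no gene was called without interstitial stroma replicate 1 or 2 or tunica albuginea replicate 1 or 3, and 1 was called without interstitial stroma replicate 4 or tunica albuginea replicate 2. Against close stroma, 1 gene was called without tunica albuginea replicate 3, 2 without tunica albuginea replicate 2 or close stroma replicate 1 or 2, and 3 without tunica albuginea replicate 4 or close stroma replicate 3 or 4. The F test called 1 gene without interstitial stroma replicate 1 or 2 or tunica albuginea replicate 1 or 3, and 2 without interstitial stroma replicate 4, tunica albuginea replicate 2, close stroma replicate 4 or theca replicate 1 or 3.

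ITGA1, a collagen receptor chain of mesenchymal cells, gave the clearest difference. It was 8.9, 8.3, 8.3 and 7.9 in tunica albuginea, 7.4, 7.7, 7.5 and 7.3 in interstitial stroma, and 7.2, 7.2, 6.9 and 7.1 in close stroma. Theca ran from 7.4 to 8.4 (median 7.95). The tunica stood above both kinds of stroma without overlap, while theca overlapped with the tunica and with interstitial stroma. The difference from close stroma was 1.25 ± 0.21 (SE, adjusted p = 0.002), and it held in all settings tried. The difference from interstitial stroma was 0.88 ± 0.21 (SE, adjusted p = 0.043), lost without any 1 of the 4 interstitial arrays, without tunica albuginea replicate 1, 2 or 3, without theca replicate 1, 2 or 6, and without close stroma replicate 1, 2 or 4. Its value stayed between 0.69 and 1.03 in these settings. ITGA1 in theca was above close stroma (0.85 ± 0.19, SE, adjusted p = 0.0025).

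ITGA10, another collagen-binding chain, was also highest in tunica albuginea, with more spread. It was 5.8, 5.1, 5.8 and 5.5 in tunica albuginea, 4.9, 4.4, 5.4 and 4.0 in interstitial stroma, and 4.3, 5.0, 4.8 and 4.8 in close stroma, and ran from 4.0 to 5.4 in theca (median 4.55). Only the difference from theca passed (theca lower by a log2 difference of -1.02 ± 0.28, SE, adjusted p = 0.0087). The tunica exceeded interstitial stroma by 0.88 ± 0.31 (SE, adjusted p = 0.2) and close stroma by 0.83 ± 0.31 (SE, adjusted p = 0.17).

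ITGA9, whose pair with ITGB1 binds tenascin-C among other ligands, averaged 8.62 ± 0.25 in tunica albuginea, 7.70 ± 0.36 in interstitial stroma and 8.03 ± 0.21 in close stroma (SD, n = 4 each), and 7.78 ± 0.30 in theca (SD, n = 6). It was higher in tunica than in interstitial stroma by 0.92 ± 0.20 (SE, adjusted p = 0.02) and than in theca, where the log2 difference was -0.84 ± 0.18 (theca minus tunica, SE, adjusted p = 0.0014). Its call against interstitial stroma was lost without interstitial stroma replicate 1 or 2 or tunica albuginea replicate 1 or 3 (adjusted p up to 0.082). TNC, the tenascin-C gene, was also higher in tunica than in interstitial stroma (2.25 ± 0.46, SE, adjusted p = 0.016), and in close stroma it lay lower than in tunica by 3.60 ± 0.46 (SE, adjusted p = 0.00015). ITGA9 exceeded close stroma by 0.60 ± 0.20 (SE, adjusted p = 0.11).

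ITGB3, which pairs with ITGAV to bind vitronectin and other RGD ligands, was 6.5, 6.8, 6.4 and 5.9 in tunica albuginea. It was 4.9, 5.4, 5.8 and 5.4 in interstitial stroma, 5.9, 5.1, 5.5 and 4.9 in close stroma, and 5.2 to 6.3 in theca (median 5.45). The tunica was highest, with its lowest array tied with the highest of close stroma. It exceeded close stroma by 1.05 ± 0.27 (SE, adjusted p = 0.036), interstitial stroma by 1.03 ± 0.27 (SE, adjusted p = 0.068), and theca lay lower by a log2 difference of -0.78 ± 0.25 (SE, adjusted p = 0.019). The first of these was lost without tunica albuginea replicate 1, 2 or 3 or close stroma replicate 2 or 4 (adjusted p up to 0.11), and the last without tunica albuginea replicate 2 (adjusted p up to 0.074).

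CD44 and DAG1, given array by array above, were each called against 1 kind of stroma. CD44 was higher in tunica than in close stroma by 1.25 ± 0.32 (SE, adjusted p = 0.037), a call lost without close stroma replicate 1 or 3 or tunica albuginea replicate 2, 3 or 4 (adjusted p up to 0.13), and exceeded interstitial stroma by 0.83 ± 0.32 (SE, adjusted p = 0.26). DAG1 was higher in tunica than in interstitial stroma by 1.12 ± 0.25 (SE, adjusted p = 0.027), lost without interstitial stroma replicate 1, 2 or 4 or tunica albuginea replicate 1, 2 or 3 (adjusted p up to 0.09), and exceeded close stroma by 0.70 ± 0.25 (SE, adjusted p = 0.15). SDC2 was higher in tunica than in close stroma by 0.50 ± 0.13 (SE, adjusted p = 0.04), a call lost without theca replicate 3, interstitial stroma replicate 1 or 2, any 1 array of close stroma, or tunica albuginea replicate 1, 2 or 3 (adjusted p up to 0.12). SDC4 exceeded interstitial stroma by 0.50 ± 0.20 (SE, adjusted p = 0.28) and close stroma by 0.52 ± 0.20 (SE, adjusted p = 0.19) in tunica, without overlap between arrays in either case.

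ITGA6, a laminin receptor chain, was the 1 gene called lower in tunica than in stroma, and only against close stroma. It was 7.0, 7.7, 6.1 and 6.8 in tunica albuginea and 8.3, 8.6, 7.4 and 8.1 in close stroma. Interstitial stroma had 8.0, 7.6, 7.1 and 7.8, and theca ran from 7.4 to 7.9 (median 7.7). The order ran from close stroma down to the tunica, with overlap at each step, and theca was the tightest group. The tunica differed from close stroma by -1.20 ± 0.29 (SE, adjusted p = 0.024), lost without close stroma replicate 1 or 2 or tunica albuginea replicate 3 or 4 (adjusted p up to 0.14). Between the tunica and interstitial stroma the difference was -0.72 ± 0.29 (SE, adjusted p = 0.27), which was not called. Theca exceeded the tunica by 0.77 ± 0.26 (SE, adjusted p = 0.03), lost without theca replicate 1, 3 or 6 or tunica albuginea replicate 3 or 4 (adjusted p up to 0.14).

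ITGA6 is also carried by oocytes and granulosa cells in the mouse, so the markers of both are given beside it. The 8 granulosa markers averaged 3.6 to 3.85 in close stroma and 3.6 to 3.74 in interstitial stroma. Tunica albuginea had 3.51 to 3.71 for them and theca 5.04 to 5.5. With single arrays in replicate order, as for ITGA6 above, the 7 oocyte markers averaged 5.36, 5.71, 4.13 and 4.43 in close stroma. In tunica albuginea the oocyte markers averaged 3.14 to 3.46. They averaged 4.41, 4.2, 3.71 and 3.66 in interstitial stroma, also in replicate order, and 3.11 to 3.34 in theca. Interstitial stroma replicate 4 had the lowest oocyte mean there but not the lowest ITGA6 (7.8, beside 7.1 in replicate 3). Endothelial markers, of another cell that carries ITGA6, averaged 3.48 to 3.87 in tunica albuginea, below every array of the other compartments. The part of these cells in the ITGA6 difference was not tested. The other laminin-binding chains, ITGA3 (means 3.78 to 3.98) and ITGA7 (3.02 to 3.35, below the array median on all arrays), did not differ among the compartments.

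Between close stroma and interstitial stroma, none of the 34 genes passed limma's test (beside 0.0336% of all clusters, 9 of 26773), and 1, ITGA7, had an unadjusted p below 0.05 (beside 8.12% of clusters), with all its values below the array median. ITGA1 did not overlap between them, at 6.9 to 7.2 in close stroma and 7.3 to 7.7 in interstitial stroma, with a difference of -0.38 ± 0.21 (SE, adjusted p = 0.69). It was the 1 gene of the 34 whose arrays all lay lower in close stroma (2.94%, beside 1.18% of clusters), and none lay higher throughout (beside 1.41%). The point estimates furthest from 0 were for ITGA5 (-0.48 ± 0.25), ITGA6 (0.47 ± 0.29), DAG1 (0.42 ± 0.25) and CD44 (-0.42 ± 0.32), each with an adjusted p of at least 0.67.

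Genes that work with matrix receptors were counted from lists drawn up beside them. Unlike those of the receptor genes, their calls were not followed through other settings or with arrays left out. In focal adhesion and integrin activation, which joins integrins to actin, theca was higher than the mean for 5 of 34 measured genes and lower for 12 (beside 19.6% and 22.2% of all clusters). The integrin-linked scaffold gene LIMS1 rose (1.22 ± 0.14, SE), as did TNS3 (1.13 ± 0.11, SE), and the adaptor TGFB1I1 (-1.34 ± 0.14), TNS1, a tensin of focal adhesions (-1.31 ± 0.11), and NEDD9 (-1.20 ± 0.17) fell. NEDD9, a docking protein downstream of integrins, was also higher in tunica than in interstitial stroma (1.35 ± 0.24, SE, adjusted p = 0.0054) and close stroma (1.58 ± 0.24, SE, adjusted p = 0.00072). The 10 smooth muscle and pericyte markers had a median difference of -0.84 in theca, with array means of 5.38 to 5.93 there, 5.85 to 6.67 in interstitial stroma, 6.1 to 6.28 in close stroma and 5.55 to 6.08 in tunica albuginea. Their part in the lower values of this list, of ITGA8 and of DMD was not tested. In the tunica 2 genes of this list were higher and none lower against interstitial stroma (beside 0.945% and 0.575% of clusters). Against close stroma 2 were higher (NEDD9 and TNS3) and 1 lower (TLN2, -0.70 ± 0.16), beside 1.85% and 1.95% of clusters.

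Among 11 tetraspanins and other partners of integrins in the membrane, 4 were higher in theca and 1 was lower (beside 19.6% and 22.2% of all clusters). CAV1, the main caveolar coat protein, rose by 2.83 ± 0.26 (SE), the tetraspanin CD9 by 1.88 ± 0.17 and BSG (basigin) by 0.98 ± 0.11, and TSPAN4 fell (-0.67 ± 0.14). CD9 and CD151, which binds laminin-binding integrins directly, were also higher in tunica than in interstitial stroma (1.05 ± 0.24 and 0.75 ± 0.16, SE) and than in close stroma (1.62 ± 0.24 and 0.83 ± 0.16, SE). CAV1 is abundant in endothelium, which also carries CD36, LAMA4 and, in lymphatic vessels, LYVE1, all of which were higher in theca. Endothelial markers were higher there as well, with a median difference of 1.60 over 10 genes, and their part in these values was not tested.

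In the dystrophin-glycoprotein complex and the enzymes that glycosylate dystroglycan, calls went in both directions. In theca, 3 of 15 measured genes were higher and 6 were lower (beside 19.6% and 22.2% of all clusters). POMT2, which starts the sugar chain on dystroglycan, rose (0.93 ± 0.12, SE), while DMD, the dystrophin gene (-1.47 ± 0.22), SGCD, a sarcoglycan (-1.15 ± 0.20), and DTNB (-0.79 ± 0.18) fell. DMD was also lower in tunica than in interstitial stroma (-1.45 ± 0.31, SE, adjusted p = 0.021) and close stroma (-1.62 ± 0.31, SE, adjusted p = 0.0054), while SGCB exceeded the latter by 0.68 ± 0.17 (SE, adjusted p = 0.03). Theca also had less DMD than interstitial stroma (-1.89 ± 0.28, SE, adjusted p = 6.9e-05), so that both theca and tunica had more DAG1 and less DMD than interstitial stroma. The DAG1 call of the tunica was lost in some settings, as given above.

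Around CD44, 6 of 15 genes of hyaluronan synthesis, binding and turnover were higher in theca and 3 lower (beside 19.6% and 22.2% of all clusters). The lymphatic hyaluronan receptor LYVE1 (2.06 ± 0.26, SE) and HMMR, a hyaluronan-binding protein of dividing cells (1.78 ± 0.31), rose, and ITIH5, of the family whose heavy chains bind hyaluronan (-3.67 ± 0.14), and the link protein HAPLN1 (-1.18 ± 0.23) fell. ITIH5, like CD44, was lowest in theca and highest in tunica albuginea, with means of 3.48 in theca, 6.65 in interstitial stroma, 6.75 in close stroma and 8.05 in tunica albuginea. It was higher in tunica by 1.40 ± 0.20 and 1.30 ± 0.20 (SE), and the proteoglycan VCAN exceeded close stroma there by 0.95 ± 0.26 (SE, adjusted p = 0.047).

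Beside the syndecans, 3 of 19 glypicans and syndecan partners were higher in theca and 6 lower (beside 19.6% and 22.2% of all clusters). The glypican GPC3 rose (1.92 ± 0.23, SE), and the enzymes that trim heparan sulphate, SULF1 (-1.90 ± 0.27), SULF2 (-1.82 ± 0.15) and HPSE, heparanase (-1.72 ± 0.36), fell. In tunica, SULF2 (-0.97 ± 0.22, SE) and GPC5 (-0.88 ± 0.19) were lower than in interstitial stroma, and XYLT2, which starts heparan sulphate chains, was higher than in close stroma (0.68 ± 0.17).

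The matrix ligands of integrins changed in both directions in theca, 14 of 34 higher and 10 lower (median 0.01, beside 19.6% and 22.2% of all clusters). POSTN, periostin (3.03 ± 0.32, SE), and LAMA4, a laminin chain of vessel walls (2.74 ± 0.22), rose, and TNC (-2.74 ± 0.32) and THBS1, thrombospondin (-2.46 ± 0.22), fell. In tunica 9 of the 34 were higher and 3 lower than in interstitial stroma (beside 0.945% and 0.575% of clusters), and 13 higher and 1 lower than in close stroma (beside 1.85% and 1.95%). CCN2, a secreted protein of the matrix (1.52 ± 0.35 and 2.27 ± 0.35, SE), and COL1A1, a fibrillar collagen chain (1.48 ± 0.26 and 2.13 ± 0.26), were higher in both, and LAMA4 was lower than in interstitial stroma (-1.93 ± 0.31). Of 14 other receptors for matrix, 5 were higher and 5 lower in theca (beside 19.6% and 22.2% of all clusters). The collagen and thrombospondin receptor CD36 rose (3.80 ± 0.25, SE), as did CD248 (1.20 ± 0.22), LRP1, an endocytic receptor (-1.79 ± 0.11), and MRC2, which takes up collagen (-1.27 ± 0.10), fell, and ENG, a TGF-beta co-receptor, was higher in tunica than in interstitial stroma (1.05 ± 0.13, SE) and close stroma (1.12 ± 0.13).

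**Figure D4:**
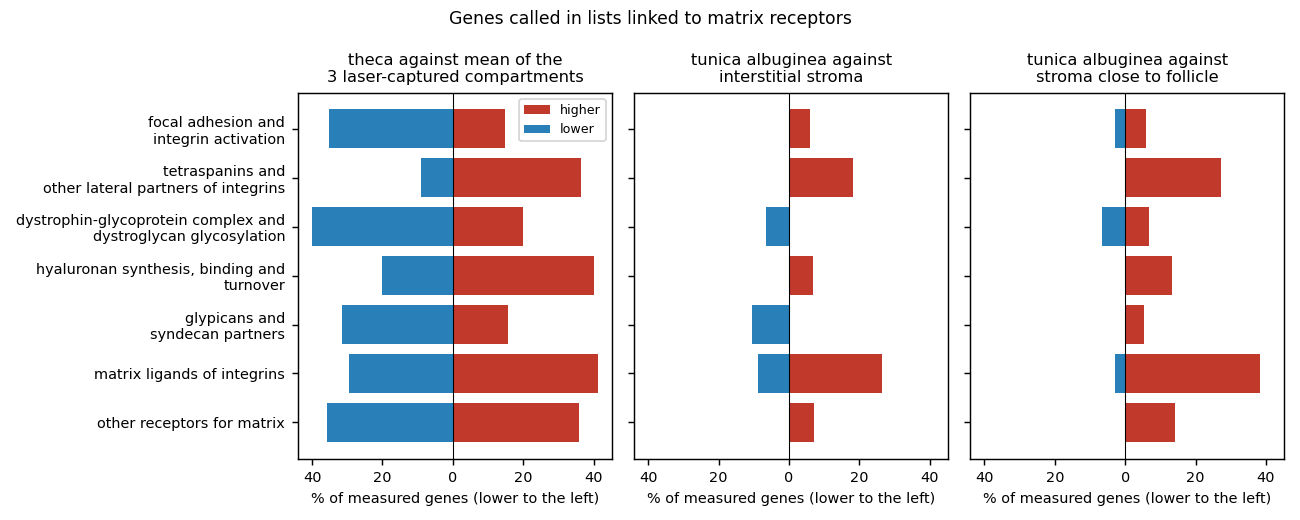
Percent of measured genes (x axis) called higher (red, to the right) or lower (blue, to the left) in 7 lists linked to matrix receptors, for theca against the laser-captured mean and for tunica albuginea against each kind of stroma. Theca has calls in both directions in every list, while in tunica the matrix ligands have the most calls and most of these are higher.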

How the data were processed

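The deposited values are log2 signals, for which the submitters' processing notes name RMA and Partek 6.5. RMA corrects background, quantile-normalizes arrays and sums up probes, and its settings were not given in the sources used here. This table holds 26773 transcript clusters with 1 decimal. The authors' quantile normalization hides any change common to most genes, no detection call is given, and the number of arrays limits the precision. Compartments were taken from sample titles and compartment labels. One other label names all samples as thecal; it was set aside.

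Genes were named from clusters with 1 symbol in the array's annotation table (18457 clusters), the brightest cluster standing for a gene. Tests used limma 3.58.1 in R 4.3.3 on all 26773 clusters, with 1 mean per compartment over 18 arrays, empirical Bayes moderation, two-sided p-values and Benjamini-Hochberg adjustment over all clusters. A call is an adjusted p below 0.05, SE is the moderated standard error and SD the spread of arrays. The fit was tested on simulated data. The members and lists (7 of linked genes, 11 of markers) were chosen with earlier results of these data known. Array values are given for members with an F test call and compartment means at least 1 unit apart. Up to 4 genes per linked list are named by their difference in theca and up to 2 by that in tunica. Some pools may share animals, which is not stated, and p-values then measure only the spread between these arrays. Replicate numbers were not used to pair arrays in the main fit. Deviations of same-numbered arrays correlated at 0.0955 to 0.145 between interstitial stroma and tunica albuginea. For the other pairs of compartments they correlated at -0.0479 to 0.0763. No pair of compartments had every correlation above 0.1, and whether interstitial stroma and tunica pools share animals was not tested.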

Additional observations from a re-analysis of the deposited data

Results flagged for a closer look

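In 5 of the 136 combinations of gene and compartment, 1 array lay far from the others of its compartment relative to their range, where chance gives about 1 in 20. Theca replicate 2 had a DAG1 signal of 9.8, with the other theca arrays between 9.0 and 9.2. Close stroma replicate 3 had SDC4 at 6.2 (others 6.7 to 6.8) and ITGBL1 at 3.0 (others all 3.2), and replicate 4 had ITGB8 at 5.8 (others all 5.6). Interstitial stroma replicate 1 had ITGB1 at 8.8 (others all 8.9). In the last 3 the gap is 0.1 or 0.2, the size of 1 or 2 rounding steps. Close stroma replicate 3 is also the array with the lowest oocyte marker signal of its compartment (4.13).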

How the results depend on the processing

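Each fit was repeated under 9 other settings and without each of the 18 arrays, and no call on a receptor gene changed direction. Of 69 calls, 43 held in every setting that could be run, including every theca call of ITGBL1, DAG1, ITGA4, ITGA5, ITGB1, SDC4, ITGB8, ITGA8 and CD44. Each gene had 1 cluster, so that other clusters of a gene gave no value. Some counts differed by over 1.5 times. With values under the array median set to it, which makes dim clusters constant, 5405 clusters differed between theca and close stroma, 5845 between theca and tunica albuginea, 7065 from the mean, 6229 by the F test over 4 compartments and 427 over 3. It left 251 clusters and 1 receptor gene for tunica against interstitial stroma, 564 and 2 against close stroma, and 1 receptor gene by the F test over 3. With the arrays of the compartments compared alone, and so fewer samples, 204 clusters and 0 receptor genes differed between tunica and interstitial stroma, 434 and 1 between tunica and close stroma, 529 and 1 by the F test over 3, and 0 clusters between the kinds of stroma. Array weights left 3 receptor genes for tunica against close stroma. Between the kinds of stroma, 5 clusters were called with the replicate block, 3 without the dimmest 40% and 14 with trend and robust moderation, and the cause was not tested. The block changed the count of calls by over 1.5 times nowhere else, with 14 receptor genes against 16 for theca against the mean. Leaving out 1 array gave 0 to 4 receptor genes and 219 to 477 clusters for tunica against interstitial stroma, 1 to 5 and 627 to 1022 against close stroma, 1 to 5 and 467 to 1006 by the F test over 3, and 0 to 152 clusters between the kinds of stroma, most without close stroma replicate 3. Centring on the 75th percentile moved the median cluster to -0.142 (theca against the mean) and the share of calls that were higher in theca from 46.9% to 33.7%, with 7 receptor genes higher and 11 lower in place of 9 and 7. It gave 38.1%, 35.4% and 34.2% in place of 49.7%, 49.7% and 47.5% against interstitial stroma, close stroma and tunica albuginea. Values close to the array median limit what can be said of SDC1, SDC3, DDR1, ITGA11 and ITGAM.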
